A study of Oncorhynchus mykiss with 6 samples.

Results

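The genes described here encode 7 proteins of the melanosome, the pigment organelle of melanophores, or of the pigment cell membrane: Oca2, Slc45a2, slc24a5, GPR143, TRPM1, MLANA and Tspan10. They were chosen by symbol, ignoring case and a copy ending, and no measured value entered the rule. Earlier results of these data were known when the genes were chosen. The rule matched 13 of the 43862 gene rows of the deposited table. Rainbow trout (Oncorhynchus mykiss) descends from an ancestor whose genome was doubled, and 5 of the 7 symbols had several rows. Copies are told apart below by their gene number in the table, given in brackets.

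RNA of dorsal skin from yellow mutant rainbow trout was sequenced at 90 days of age (3 libraries, replicates 1 to 3) and at 1 day of age (3 libraries, replicates 1 to 3). Every library is of the yellow mutant, so ages are compared and colours are not. The series set out to find genes for colour formation over 3 developmental stages, and the remaining stage was not analysed here. Whether the replicates are separate fish, and how many fish a library holds, is not stated in the labels, so p-values measure only the spread between these libraries, which may be technical.

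Melanin is made inside the melanosome by tyrosinase and related enzymes on fibrils of the protein PMEL, and tyrosinase works poorly in an acid organelle. OCA2 and SLC45A2 are membrane proteins that raise the pH of the melanosome, and SLC24A5 exchanges sodium, potassium and calcium across an organelle membrane of pigment cells. Loss of OCA2, SLC45A2 or SLC24A5 lightens pigment in people and in fish: the zebrafish mutants albino and golden carry changes in slc45a2 and slc24a5. GPR143 is a receptor of the melanosome, TRPM1 a cation channel of melanocytes and of retinal ON bipolar cells, MLANA a small membrane protein that binds PMEL, and TSPAN10 a tetraspanin. That these proteins sit in the organelle is background; only RNA was measured.

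Total counts ran from 16157312 to 18960866 per library. Libraries of an age correlated across genes with Pearson's r of 0.977 to 0.993, and libraries of different ages with 0.697 to 0.757. Skin markers were present at both ages: the summed FPKM (fragments per kilobase of gene length, scaled to depth) of the epidermis list was 13652.5 to 17020.4 at day 90 and 4314.9 to 4377.2 at day 1. The day 1 libraries also carried RNA of cells of the eye, some of which use the genes described here. Retinal pigment epithelium is a melanin-making layer, and 24 rows of its markers summed to 8.93 to 10 FPKM at day 90, with 8 rows at 0 in all 3 libraries, and to 94.7 to 119 FPKM at day 1, with no row at 0 throughout. The 31 rows of bipolar cell markers summed to 7.89 to 8.46 FPKM at day 90, with 14 at 0, and to 74.6 to 103 FPKM at day 1. The 42 photoreceptor rows summed to 6.7 to 7.36 FPKM at day 90 and to 103 to 126 FPKM at day 1, and the 54 lens rows to 1.91 to 2.08 FPKM at day 90 and to 3108.4 to 3963.1 FPKM at day 1. These sums were lower at day 90, the opposite direction to the genes described here. Which cells hold the transcripts was not tested. In bulk skin, fewer cells of a type and less RNA per cell cannot be told apart.

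Each of the 11 copies abundant enough to test was higher at day 90 than at day 1, by 3.17-fold to 10.8-fold on normalized counts, and none was lower. Genes were tested where FPKM reached 1 in at least 3 of the 6 libraries, with the quasi-likelihood test of edgeR on TMM-normalized counts and p-values adjusted over all 29436 genes tested. At a threshold of 0.05, 32.5% of all tested genes were higher at day 90 and 35.4% were lower. Of the 11 copies, 3 reached FPKM 1 at day 90 alone and so could be tested only because they were high there. The other 8 stood at FPKM 1 or more in all libraries. In other gene lists too, rows under FPKM 1 throughout an age could be tested only because they were high at the other.

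A split of the tested genes by mean level over all libraries, which weighs both ages alike, left 10 of the 13 copies, each of them higher. Of these, slc24a5 (110511230) and Tspan10 (110507112) were under FPKM 1 throughout day 1 and reached the mean through day 90. The median log2 fold change of the 10 copies was 2.58, against 0.01 for the 27783 tested genes with a mean FPKM of at least 1. Of those genes 33.8% were higher and 32.9% lower. The FPKM of the 8 copies at FPKM 1 or more in all libraries did not overlap between the ages. This was true of 22.3% of all tested genes in this direction and of 52.9% in the other. Those shares also take in genes under FPKM 1 throughout an age, unlike the 8 copies. They rest on FPKM, which is scaled to depth without the TMM factors. The 3 copies tested through day 90 alone were slc24a5 (110511230), TRPM1 (110500983) and Tspan10 (110507112). They did not overlap either, but for them the filter had fixed that. Of all tested genes, 1.8% had a larger log2 fold change than MLANA (110523960), the copy with the largest, and 8.02% a larger one than MLANA (110536967), the copy with the smallest. When the copies of each symbol were summed, all 7 symbols were higher, as were 33.8% of the 16278 symbols tested, 34.8% being lower. The symbol log2 fold changes were 3.35 ± 0.16 for oca2, 3.35 ± 0.11 for mlana, 3.12 ± 0.13 for gpr143, 2.63 ± 0.14 for slc45a2, 2.45 ± 0.29 for tspan10, 2.26 ± 0.15 for trpm1 and 2.05 ± 0.13 for slc24a5 (SE). The tspan10 sum passed the filter through day 90 alone.

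**Figure D1:**
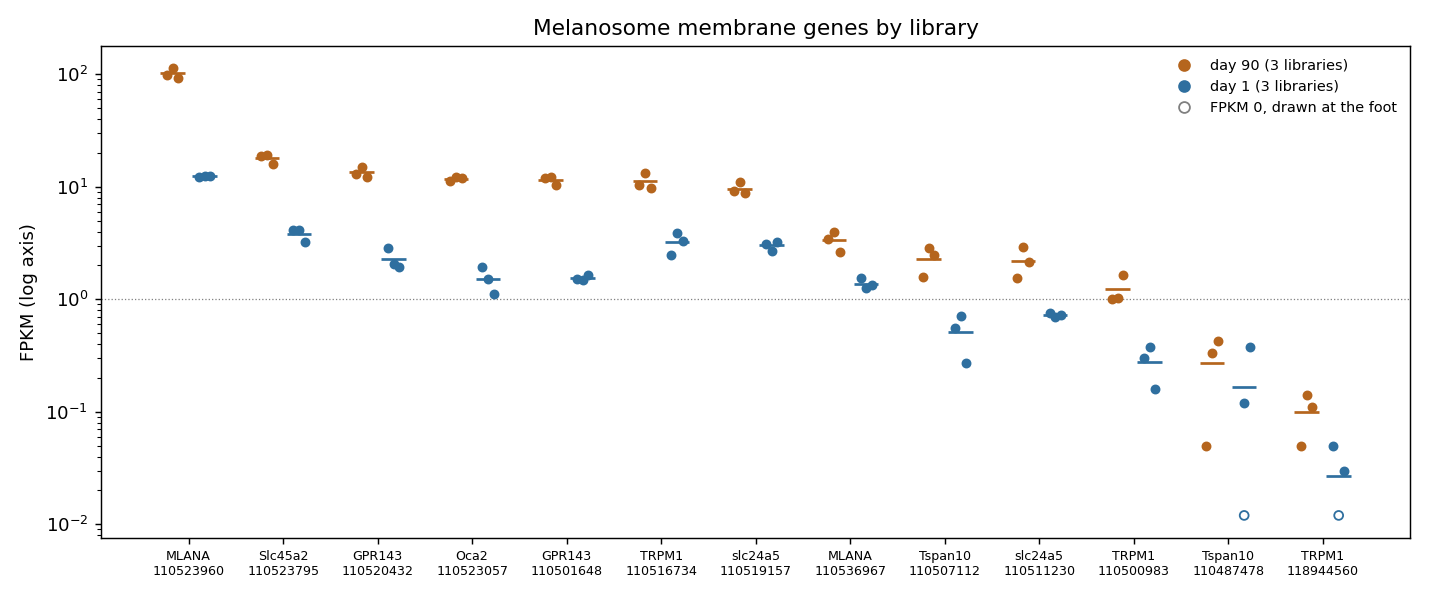
FPKM of each of the 13 copies in each library on a log axis, day 90 left of day 1, with 1 point per library (n = 3 per age), open circles for values of 0 and a dotted line at FPKM 1. The 3 points of day 90 lie above the 3 of day 1 in the 11 tested copies; in TRPM1 (118944560) and Tspan10 (110487478) they overlap under the line.

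Of the tested copies of Oca2, Slc45a2, slc24a5 and TRPM1, the single Oca2 row had the largest fold change. Oca2 (110523057), the anion channel protein whose loss causes oculocutaneous albinism, had 11.3, 12.2 and 12 FPKM in the day 90 libraries, against 1.93, 1.52 and 1.12 FPKM in the day 1 libraries. Every day 90 library was above every day 1 library, and the spread at day 90 was small beside the difference. The means were 11.8 ± 0.46 FPKM at day 90 and 1.52 ± 0.405 FPKM at day 1 (SD, n = 3 each), 10.2-fold higher on normalized counts. The log2 fold change was 3.35 ± 0.17 (SE; edgeR, adjusted p = 2.43e-07).

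Slc45a2 (110523795), a transporter coupled to protons, had 18.9, 19.3 and 16 FPKM in the day 90 libraries, against 4.13, 4.15 and 3.24 FPKM in the day 1 libraries. Replicate 3 was the lowest at both ages, and the ages did not overlap. The means were 18.1 ± 1.79 FPKM at day 90 and 3.84 ± 0.52 FPKM at day 1 (SD, n = 3 each). The log2 fold change was 2.63 ± 0.14 (edgeR, adjusted p = 4.31e-07), or 6.17-fold.

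Both copies of slc24a5, the exchanger gene, rose by about the same factor from different levels. slc24a5 (110519157) had 9.15, 11 and 8.81 FPKM in the day 90 libraries, against 3.13, 2.69 and 3.24 FPKM in the day 1 libraries, the log2 fold change being 2.06 ± 0.14 (edgeR, adjusted p = 1.42e-06). slc24a5 (110511230) had 1.54, 2.9 and 2.16 FPKM in the day 90 libraries, against 0.76, 0.7 and 0.72 FPKM in the day 1 libraries, with 1.98 ± 0.24 (edgeR, adjusted p = 7.33e-05). Neither copy overlapped between the ages. The lower copy was under FPKM 1 throughout day 1, so the filter fixed its direction, and its day 90 replicate 1 stood well below replicate 2. The folds were 4.16 and 3.94.

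TRPM1, the cation channel, had 3 rows of very unequal level. TRPM1 (110516734) had 10.4, 13.3 and 9.81 FPKM in the day 90 libraries, against 2.5, 3.9 and 3.29 FPKM in the day 1 libraries, the log2 fold change being 2.17 ± 0.19 (edgeR, adjusted p = 8.01e-06). TRPM1 (110500983) had 1.01, 1.03 and 1.66 FPKM in the day 90 libraries, against 0.3, 0.38 and 0.16 FPKM in the day 1 libraries, with 2.52 ± 0.30 (edgeR, adjusted p = 6.28e-05). In both copies the ages were apart, replicate 2 being highest at both ages in the abundant copy. TRPM1 (110500983) passed the filter through day 90 alone, which fixed its direction.

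The remaining row, TRPM1 (118944560), was too low to test. It held 2, 5 and 4 counts in the day 90 libraries, against 2, 0 and 1 counts in the day 1 libraries, so the ages overlapped. The ratio of normalized counts was 4.99 (exact 95% interval 1.32 to 27.8, for counting error only), and without the filter the adjusted p was 0.069 (edgeR). In the RefSeq gene table of assembly USDA_OmykA_1.1 there were 0 genes between this row and TRPM1 (110516734). Whether it is a separate gene or a fragment of its neighbour was not tested.

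Both copies of GPR143, the melanosome receptor whose loss causes ocular albinism, rose to similar levels. GPR143 (110520432) had 13, 14.9 and 12.2 FPKM in the day 90 libraries, against 2.84, 2.07 and 1.94 FPKM in the day 1 libraries, the log2 fold change being 2.94 ± 0.17 (edgeR, adjusted p = 6.2e-07). GPR143 (110501648) had 11.9, 12.3 and 10.4 FPKM in the day 90 libraries, against 1.51, 1.48 and 1.63 FPKM in the day 1 libraries, with 3.29 ± 0.15 (edgeR, adjusted p = 1.68e-07). The day 90 values of the copies overlapped each other, and in both copies day 90 was far above day 1. The folds were 7.66 and 9.8.

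MLANA, whose protein binds the fibril protein PMEL, had the most abundant row of all 13. MLANA (110523960) had 99.4, 113 and 93.5 FPKM in the day 90 libraries, against 12.1, 12.5 and 12.5 FPKM in the day 1 libraries. The day 1 libraries were almost equal, and each day 90 library was well above them. The means were 102 ± 10 FPKM at day 90 and 12.4 ± 0.231 FPKM at day 1 (SD, n = 3 each), 10.8-fold higher on normalized counts. The log2 fold change was 3.44 ± 0.13 (edgeR, adjusted p = 6.08e-08).

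The other copy, MLANA (110536967), was low and changed least of the tested copies. It had 3.46, 3.96 and 2.64 FPKM in the day 90 libraries, against 1.55, 1.25 and 1.35 FPKM in the day 1 libraries. The ages did not overlap, and the log2 fold change was 1.67 ± 0.25 (edgeR, adjusted p = 0.000294). It was the single copy whose call was lost under another scaling: with counts scaled to the epidermis list its log2 fold change was 0.55 (adjusted p = 0.102), with 0.55 to 1.71 over all alternatives.

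Tspan10 encodes a tetraspanin of the group that partners the protease ADAM10. Tspan10 (110507112) had 1.58, 2.84 and 2.49 FPKM in the day 90 libraries, against 0.56, 0.71 and 0.27 FPKM in the day 1 libraries. The ages were apart, and the log2 fold change was 2.54 ± 0.33 (edgeR, adjusted p = 0.000101). All day 1 values were under FPKM 1, so the filter fixed the direction of this copy. Tspan10 (110487478) was not tested: it held 1, 6 and 7 counts in the day 90 libraries, against 0, 2 and 7 counts in the day 1 libraries, a ratio of normalized counts of 2.12 (exact 95% interval 0.853 to 5.54). Replicate 3 had equal counts at both ages, and no change was detectable in this copy at this depth.

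The log2 fold change of every gene shifted with the scaling between ages. Over all tested genes the median stood at -0.03 under TMM, at -0.43 under library size alone, at -0.06 under median-of-ratios factors and at -1.16 where counts were scaled to the epidermis list. The median of the 11 copies was 2.54, 2.15, 2.52 and 1.41 in the same order, in each case 2.58 above that of all genes. A change of scaling moves the log2 fold changes of all genes by about the same amount, so this distance was bound to stay the same. With the epidermis scaling 10 of the 11 copies were higher and 0 lower, against 8.54% of all tested genes higher and 75.9% lower. The epidermis list, which took in keratin and claudin genes at large, was itself divided. Under TMM 68 of its 116 tested rows were higher at day 90, 29 lower and 19 not past the threshold. In the authors' deposited table the log2 fold changes of the 11 copies ran from 1.28 for MLANA (110536967) to 3.04 for MLANA (110523960), and the FDR was 0.16 for TRPM1 (118944560) and 0.49 for Tspan10 (110487478).

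**Figure D2:**
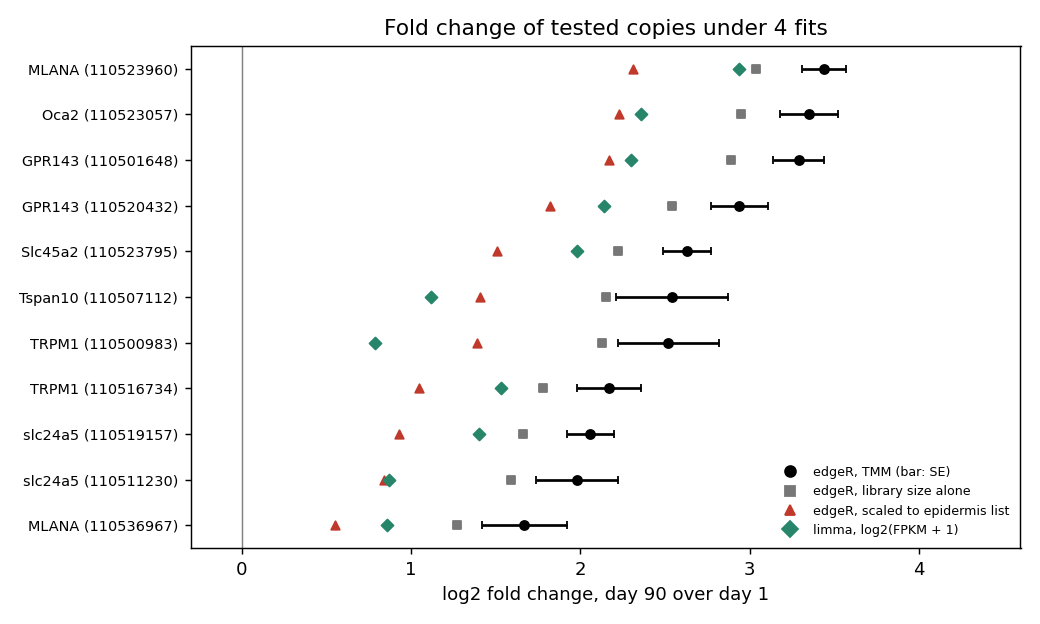
Log2 fold change of day 90 over day 1 for the 11 tested copies, with edgeR and TMM (bars, 1 SE) beside library size alone, counts scaled to the epidermis list, and limma on log2(FPKM + 1). The TMM values run from 1.67 to 3.44; every marker lies right of 0, and the epidermis-scaled value of MLANA (110536967), 0.55, is the one that did not pass the threshold.

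In order of level, MLANA (110523960) stood above all other rows at both ages, with no overlap. At day 90 Slc45a2 followed at 18.1 ± 1.79 FPKM, apart from its next neighbour. GPR143 (110520432), at 13.4 ± 1.4 FPKM, came next, its lowest library level with the highest of Oca2 to 3 digits. Oca2, GPR143 (110501648), TRPM1 (110516734) and slc24a5 (110519157), at 11.8 ± 0.46, 11.6 ± 1, 11.2 ± 1.84 and 9.65 ± 1.17 FPKM, each overlapped the next in order. A gap then separated them from MLANA (110536967), at 3.35 ± 0.666 FPKM, Tspan10 (110507112), at 2.3 ± 0.65 FPKM, slc24a5 (110511230), at 2.2 ± 0.681 FPKM, and TRPM1 (110500983), at 1.23 ± 0.37 FPKM, whose neighbours overlapped in turn.

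At day 1 the order differed behind MLANA. Slc45a2, TRPM1 (110516734), slc24a5 (110519157) and GPR143 (110520432) came next, at 3.84 ± 0.52, 3.23 ± 0.702, 3.02 ± 0.291 and 2.28 ± 0.486 FPKM, each overlapping the next. Oca2, at 1.52 ± 0.405 FPKM, overlapped GPR143 (110501648) and MLANA (110536967) at day 1, and at day 90 it overlapped GPR143 (110501648) but lay apart from both MLANA copies.

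The proportion of the copies was then compared between the ages. Of the FPKM of both MLANA copies, MLANA (110523960) held 96.6%, 96.6% and 97.3% in the day 90 libraries, against 88.7%, 90.9% and 90.3% in the day 1 libraries. The log2 ratio of the copies was 1.82 higher at day 90, the ages not overlapping. The exact two-sided permutation test gave p = 0.1, the smallest that 3 against 3 libraries allow, and 0.4 adjusted over the 4 pairs of tested copies. The other pairs overlapped between the ages: the log2 ratio of the copies differed by 0.21 for slc24a5 (exact p = 0.5), by -0.31 for GPR143 (110520432) over (110501648) (exact p = 0.2) and by -0.05 for the abundant over the low TRPM1 copy (exact p = 0.9). The gene length behind the FPKM of TRPM1 (110516734) was 0.346 times that of TRPM1 (110500983), so their counts, 1123 and 359 over the day 90 libraries, are closer than their FPKM. How reads matching several copies were counted is not given in the sources here, so values of single copies are less certain than their sums.

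Set against the enzymes and fibril proteins of melanin synthesis in the same library, the 7 symbols gave differences of either sign between the ages. The denominator was the summed FPKM of 16 rows of tyr, tyrp1, DCT, PMEL and GPNMB, which was 593, 649 and 592 in the day 90 libraries, against 166, 166 and 152 in the day 1 libraries. Apart from the 0.1 added to each sum, such a ratio does not depend on the scaling between ages. With it, the ratio of low symbols can shift with the scaling. The log2 ratio of mlana to this sum was -2.54 ± 0.08 at day 90 and -3.54 ± 0.08 at day 1 (SD, n = 3 each), a difference of 1.00. For oca2 it was -5.68 ± 0.05 at day 90 and -6.67 ± 0.31 at day 1, a difference of 0.99, and for gpr143 -4.61 ± 0.08 at day 90 and -5.37 ± 0.15 at day 1, a difference of 0.76. For slc45a2 the difference was 0.29. These sizes depend on the 0.1 added to each sum: with 1 added they were 0.93 for mlana, 0.44 for oca2, 0.51 for gpr143 and 0.07 for slc45a2. Day 90 and day 1 libraries did not overlap for mlana, oca2, gpr143 and slc45a2, each with an exact two-sided permutation p of 0.1, the smallest possible here, and 0.175 adjusted over the 7 symbols.

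The ratio of the other 3 symbols overlapped between the ages. The log2 difference was -0.12 for trpm1 (exact p = 0.6), -0.18 for tspan10 (exact p = 0.7) and -0.29 for slc24a5 (exact p = 0.2), and with 1 added -0.33, -0.85 and -0.48. Without day 1 replicate 2 the value for trpm1 was 0.01, and without day 90 replicate 1 that for tspan10 was 0.08. With the PMEL copies alone as denominator all 7 differences were above 0, those of slc24a5, trpm1 and tspan10 being 0.38, 0.55 and 0.48, so their direction rests on the choice of denominator. Of the 14 tested rows in the denominator list 8 were higher at day 90 and 6 lower. Of all 16 rows of that list, 7 were under FPKM 1 in all day 90 libraries, PMEL (110492024) among them. Those of the 7 that were tested passed the filter through day 1 alone, which fixed their direction. The direction differed between copies: tyrp1 (110500604) had 275, 290 and 243 FPKM in the day 90 libraries, against 43.9, 42.1 and 36.4 FPKM in the day 1 libraries, whereas PMEL (110492024) had 0.38, 0.36 and 0.08 FPKM in the day 90 libraries, against 25.4, 29.2 and 28.6 FPKM in the day 1 libraries.

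**Figure D3:**
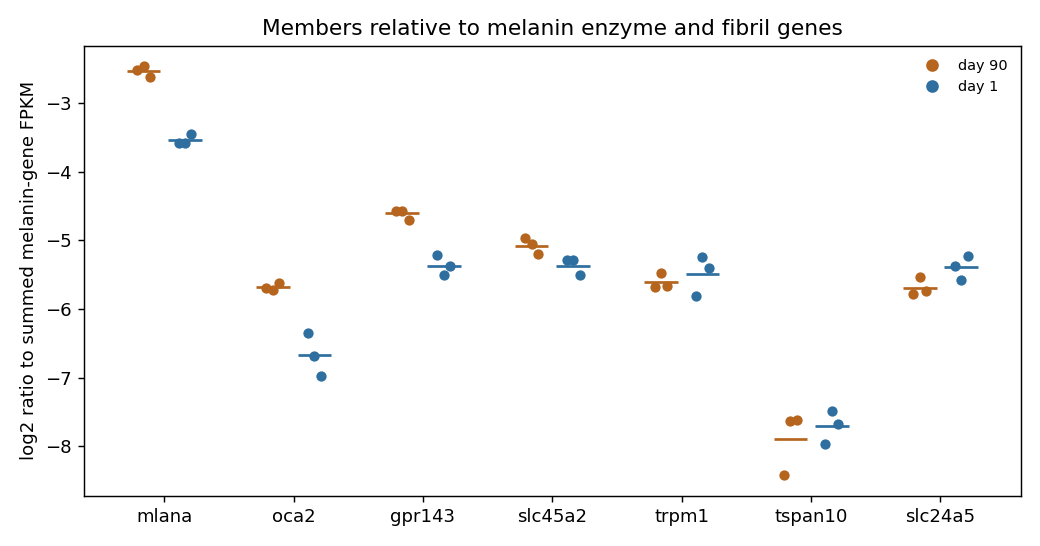
Log2 ratio of the summed FPKM of each of the 7 symbols to the summed FPKM of the melanin enzyme and fibril list, 1 point per library (n = 3 per age), day 90 left of day 1, 0.1 being added to both sums. The ages are apart for mlana, oca2, gpr143 and slc45a2 and overlap for trpm1, tspan10 and slc24a5.

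Relatives of these genes outside the pigment cell set did not share one direction. Of 10 tested rows of SLC24A2 to SLC24A4, exchangers of the same family as slc24a5, 0 were higher and 8 lower, and 2 did not pass the threshold. Of the 22 rows of the SLC24 list, 17 were under FPKM 1 in all day 90 libraries. Those of the 17 that were tested passed the filter through day 1 alone, which fixed their direction. The 3 rows of SLC24A1 were too low to test. SLC24A2 (110500322) was listed at no count in any day 90 library, against 1.77, 1.9 and 2.07 FPKM in the day 1 libraries. Both rows of SLC8B1, a mitochondrial exchanger, were higher, SLC8B1 (110525755) by 1.13 ± 0.14 on the log2 scale (edgeR, adjusted p = 8.47e-05). With the epidermis scaling 0 of the 12 rows of this list were higher and 10 lower, against 8.54% and 75.9% of all tested genes.

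Among relatives of TRPM1, all 4 tested rows of Trpm4, a sodium-permeable channel opened by calcium, were higher, and 1 row of TRPM7 did not pass. Trpm4 (MSTRG.19351) had 5.12, 4.41 and 4.6 FPKM in the day 90 libraries, against 1.09, 1.08 and 1.07 FPKM in the day 1 libraries, with 2.51 ± 0.14 on the log2 scale (edgeR, adjusted p = 4.61e-07). With the epidermis scaling 2 of these 5 rows were higher and 1 lower. Of 2 tested relatives of Slc45a2, SLC45A4 (110520735) was higher by 0.73 ± 0.20 on the log2 scale (edgeR, adjusted p = 0.00838), and its libraries overlapped between the ages. The 4 SLC45A4 rows together had 1.84 to 3.04 FPKM at day 90 and 3.1 to 3.45 FPKM at day 1. These sums are scaled to depth alone. The fold change of SLC45A4 (110520735) uses TMM, which raises day 90 against day 1, so the directions are not on the same scale. For the 2 tested rows, with library size alone 0 of the 2 were higher and with the epidermis scaling 1 was lower. Of 71 tested tetraspanin rows, 31 were higher and 27 lower. The numbers were 25 and 34 with library size alone and 13 and 44 with the epidermis scaling. Of all 94 tetraspanin rows, 32 were under FPKM 1 in all day 90 libraries. Those of the 32 that were tested passed the filter through day 1 alone, which fixed their direction. Of all tested genes 32.5% were higher and 35.4% lower under TMM, and 8.54% higher and 75.9% lower with the epidermis scaling.

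Named tetraspanins stood far from 0 on either side. tspan36 (110525244), whose zebrafish namesake is expressed in pigment cells, had 33.2, 40.8 and 38.4 FPKM in the day 90 libraries, against 5.76, 6.17 and 5.57 FPKM in the day 1 libraries, the log2 fold change being 3.06 ± 0.11 (edgeR, adjusted p = 4.91e-08). Its deposited product name is tetraspanin-3-like. Tspan7 (110495507), known from neurons, fell to 0.0967 ± 0.0737 FPKM at day 90, against 23.2 ± 1.92 FPKM at day 1 (SD, n = 3 each), with -7.57 ± 0.27 (edgeR, adjusted p = 4.71e-08). This row passed the filter through day 1 alone, which fixed its direction. Of the other tested Tspan7 rows, (110495503), (110502021) and (MSTRG.5144) were lower, at -9.69, -4.12 and -2.01 on the log2 scale. Tspan7 (110488728) and (110504926) were higher, at 1.46 and 0.41. Neural markers were lower in the same libraries: 27 of 36 tested rows were lower and 4 higher at day 90. Of the 50 rows of the neural list, 35 were under FPKM 1 in all day 90 libraries, where the filter fixed the direction of tested rows. The part of neural markers in the Tspan7 result was not tested.

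A list of other carriers, mostly of melanosomes and lysosomes, was divided. Of 26 tested rows, 12 were higher and 5 lower, 9 missing the threshold. The lower rows were all tested rows of Slc7a11, a plasma membrane carrier, with Slc30a2 (110522262) and TMEM163 (110501866). Of the 43 rows of the list, 19 were under FPKM 1 in all day 90 libraries. Those of the 19 that were tested passed the filter through day 1 alone, which fixed their direction. The numbers were 8 higher and 7 lower under library size alone, and 2 higher and 18 lower under the epidermis scaling. Of all tested genes 32.5% were higher and 35.4% lower under TMM, and 8.54% higher and 75.9% lower under the epidermis scaling. tpcn2 (110506399), a cation channel of lysosomes and melanosomes linked to human hair colour, had 10.5, 11 and 13.7 FPKM in the day 90 libraries, against 4.65, 4.66 and 4.04 FPKM in the day 1 libraries, the log2 fold change being 1.78 ± 0.11 (edgeR, adjusted p = 1.07e-06). MFSD12 (110524383), needed to bring cysteine into melanosomes, had 1.38, 1.16 and 1.44 FPKM in the day 90 libraries, against 0.31, 0.21 and 0.1 FPKM in the day 1 libraries, with 3.06 ± 0.34 (edgeR, adjusted p = 3.66e-05). It passed the filter through day 90 alone, which fixed its direction. The other tested row, MFSD12 (MSTRG.13292), stood at 0.14 on the log2 scale and missed the threshold. Slc7a11 (110505014), the cystine carrier of the plasma membrane, had 0.03, 0 and 0.02 FPKM in the day 90 libraries, against 1.76, 1.74 and 1.35 FPKM in the day 1 libraries, with -5.96 ± 0.46 (edgeR, adjusted p = 3.47e-06). This row passed the filter through day 1 alone, which fixed its direction.

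The v-ATPase, the pump that acidifies such organelles and whose effect OCA2 and SLC45A2 counter, had 51 tested rows, of which 17 were higher, 24 lower and 10 neither. The numbers were 13 higher and 31 lower under library size alone, and 2 higher and 37 lower under the epidermis scaling. Of the 53 v-ATPase rows, 11 were under FPKM 1 in all day 90 libraries. Those of the 11 that were tested passed the filter through day 1 alone, which fixed their direction. The summed level of the v-ATPase was 725 to 749 FPKM at day 90 and 928 to 940 FPKM at day 1. FPKM is scaled to depth without the TMM factors, and TMM raises day 90 values against day 1. The sum was not computed on the TMM scale, so its direction there is not known. Among genes that sort cargo to melanosomes, 30 of 42 tested rows were higher and 0 lower, with a median log2 fold change of 0.77. The numbers were 21 higher and 6 lower under library size alone, and 10 higher and 20 lower under the epidermis scaling. For both lists the shares of all tested genes were 32.5% higher and 35.4% lower under TMM. They were 8.54% higher and 75.9% lower under the epidermis scaling. HPS5 (110521177), of a complex mutated in a syndrome with albinism, had 3.68, 3.63 and 4.46 FPKM in the day 90 libraries, against 0.72, 0.81 and 0.66 FPKM in the day 1 libraries, the log2 fold change being 2.80 ± 0.14 (edgeR, adjusted p = 2.86e-07). HPS5 passed the filter through day 90 alone, which fixed its direction.

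**Figure D4:**
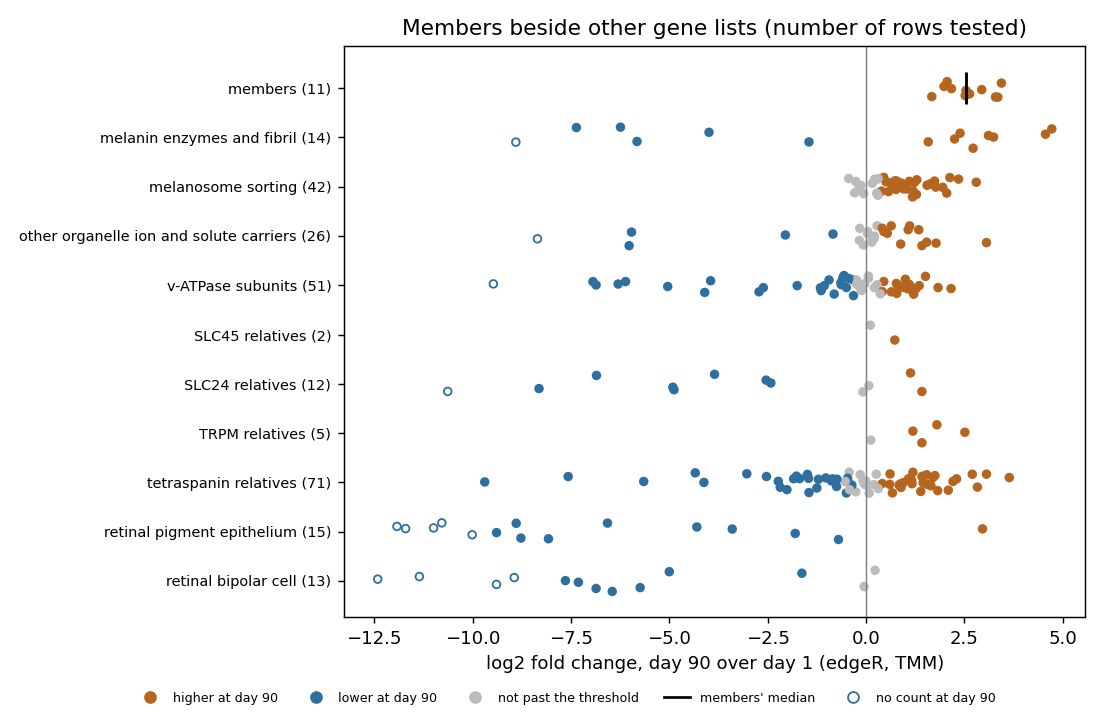
Log2 fold change of day 90 over day 1 (edgeR with TMM) for each tested row of the members and of 10 other lists, coloured by whether the row was higher, lower or not past the threshold; open circles are rows with no count at day 90, whose place depends on the prior count of the fit. The 11 members lie between 1.67 and 3.44 with the median of 2.54 drawn as a bar, while the v-ATPase, exchanger and tetraspanin rows lie on both sides of 0 and 14 of 15 rows of retinal pigment epithelium lie left of it. Of the 24 rows of that last list, 20 were under FPKM 1 in all day 90 libraries. Those of the 20 that were tested passed the filter through day 1 alone, which fixed their side. The same held for tested v-ATPase, exchanger and tetraspanin rows under FPKM 1 in all day 90 libraries.

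One row of the retinal pigment epithelium list was higher at day 90. RGR (110525521), a retinal opsin relative, had 5.16, 5.68 and 4.33 FPKM in the day 90 libraries, against 0.87, 0.79 and 0.89 FPKM in the day 1 libraries, the log2 fold change being 2.96 ± 0.20 (edgeR, adjusted p = 1.44e-06). RGR (110491798) had 0.03, 0.06 and 0.03 FPKM in the day 90 libraries, against 4.81, 5.56 and 5.61 FPKM in the day 1 libraries, with -6.57 ± 0.32 (edgeR, adjusted p = 2.35e-07). RGR (110525521) passed the filter through day 90 alone and RGR (110491798) through day 1 alone, so the filter fixed both directions. The list held 4 tested RGR rows, of which 1 was higher and 3 were lower.

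The genes with the most similar profile to each of the 7 were named by the smallest root mean square difference of log2(FPKM + 1) over the 6 libraries, each profile centred on its own mean. The nearest to Oca2 was Col16a1 (110487940), a collagen chain, with a difference of 0.029 and 52.7 ± 2.83 FPKM at day 90 and 9.39 ± 1.56 FPKM at day 1 (SD, n = 3 each). The nearest to Slc45a2 was PRLR (110513917), the prolactin receptor, at 0.0396, and the nearest to GPR143 (110520432) was Egfr (110530977), the epidermal growth factor receptor, at 0.0478. MLANA (110523960) was nearest to PODN (110520995), a matrix proteoglycan, at 0.057, although PODN had 6.84 ± 0.801 FPKM at day 90 and 0.07 FPKM in each day 1 library, a log2 fold change of 6.96. With 1 added to FPKM, genes of different level and fold can have like profiles. Tspan10 (110507112) was nearest to CNKSR1 (MSTRG.31064) at 0.0135. For slc24a5 (110519157) it was lap-2 (110525830) at 0.0603. TRPM1 (110516734) was nearest to irx1-b (110496465), a homeodomain factor, at 0.0725. Next came SH3TC1 (110531482) at 0.113 and TFEC (110490235), a relative of the pigment cell factor MITF, at 0.126. For the other copies the further neighbours are not named here. With 6 libraries of 2 ages, these likenesses describe the step between the ages and the spread of 3 libraries.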

How the data were processed

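The submitters processed the reads; Bowtie2 2.2.8 and TopHat2 2.1.1 are named in the submitters' processing notes, while no counting tool, strand setting, genome build or handling of multiply matching reads is given in the sources here. Per the file headers, the authors deposited counts and FPKM per gene and library, and a log2 fold change, p-value and FDR per gene. No coordinates are given, since the build is not stated. All 13 gene numbers were found in the RefSeq gene table of assembly USDA_OmykA_1.1, where 3 rows carry the same symbol; symbols here are those of the deposited table.

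Counts were fitted with edgeR 4.0.16 (R 4.3.3; TMM factors 0.823 to 0.913 at day 90 and 1.11 to 1.17 at day 1) over 29436 genes with FPKM of at least 1 in at least 3 of 6 libraries, holding 98.4% to 99.3% of each library's counts. P-values were adjusted by Benjamini and Hochberg's method. DESeq2 1.42.0 and limma 3.58.1 on log2(FPKM + 1) were alternatives. Scripts were tested on simulated data. All 13 matched rows are named, and of each other list up to 2 tested genes with the smallest adjusted p in each direction, plus copies of tyr, tyrp1, DCT and PMEL, which the ratio uses; tyrp1 (110500604) and PMEL (110492024) were picked from these after their values were seen. The genes, lists and named-gene rule were chosen with earlier results of these data known. The comparison of copy pairs and the split by mean FPKM were added after values were seen.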

Additional observations from a re-analysis of the deposited data

How the results depend on the processing

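Of 265 recomputed fold changes of single copies and symbols, 264 kept their direction and side of the threshold; the exception was MLANA (110536967) with counts scaled to the epidermis list (log2 fold change 0.55). The count of copies higher at day 90 stayed at 11, and that of symbols at 7, with DESeq2 and when any 1 library was left out. It was 7 with FPKM of at least 5 in at least 3 libraries, where only 7 copies could be tested. Of these 7 copies only MLANA (110523960) reached FPKM 5 at day 1. The others passed that filter through day 90 alone, so their direction there was fixed by the filter. The same 11 copies and 7 symbols were higher with the replicate number as a block. The numbers did not pair the libraries: the correlations of same-numbered libraries' deviations were -0.0886, 0.00411 and -0.123.

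With the PMEL copies alone as denominator the log2 ratio differences of slc24a5, trpm1 and tspan10 were 0.38, 0.55 and 0.48; the cause was not tested. Leaving out 1 library gave -0.28 to 0.01 for trpm1 and -0.32 to 0.08 for tspan10. With a pseudocount of 1 in place of 0.1 the differences were 0.93 for mlana, 0.44 for oca2, 0.51 for gpr143, 0.07 for slc45a2 (exact permutation p = 0.4), -0.33 for trpm1, -0.85 for tspan10 and -0.48 for slc24a5. Over the other lists together, 93 rows were higher with the epidermis scaling, against 193 with TMM, and 138 were lower with FPKM of at least 5, against 213, fewer genes being tested there. Depth limits the 2 untested copies, which held 3 to 14 counts per age.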

Other observations

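In 10 of the 11 tested copies the highest day 90 FPKM was in replicate 2, as in 27.4% of all tested genes, and in 7 of them the lowest was in replicate 3, as in 25.9%.

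Genes listed for the yellow and reflecting pigment cells were mostly higher too. Of 20 tested xanthophore and iridophore rows, 15 were higher and 1 lower, 4 missing the threshold. Of all tested genes 32.5% were higher and 35.4% lower. With the epidermis scaling 8 of the 20 rows were higher and 5 lower, against 8.54% and 75.9% of all tested genes. The row lower under TMM was Gch1 (110498968), with 0.07, 0.39 and 0.19 FPKM in the day 90 libraries, against 6.58, 8.68 and 9.21 FPKM in the day 1 libraries. Its log2 fold change was -4.89 ± 0.36 (edgeR, adjusted p = 2.61e-06), against 3.55 for Gch1 (110502330). It passed the filter through day 1 alone, which fixed its direction. The other tested rows, gch1 (110497538) at 0.09 and gch1 (100136794) at -0.16, missed the threshold. Pnp (MSTRG.27694), for a purine enzyme, had 91.2, 100 and 105 FPKM in the day 90 libraries, against 9.91, 9.6 and 9.17 FPKM in the day 1 libraries, the log2 fold change being 3.75 ± 0.11 (edgeR, adjusted p = 2.24e-08). Its highest day 90 library was replicate 3, where 7 of the 11 tested copies described above had their lowest value.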
